A study of Homo sapiens with 4 samples.

Results

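The genes described here are those of the phagocyte NADPH oxidase. They were taken by symbol from the deposited NB4 table as the rows named CYBB, CYBA, NCF1, NCF4, RAC1 and RAC2, and all 6 were found among 60662 genes. NB4 is an established line of acute promyelocytic leukemia cells that carries the PML-RARα fusion. The cells were transduced with a control vector (Vector, 2 libraries) or with a vector expressing JMJD3 (JMJD3, 2 libraries) before RNA sequencing, and JMJD3 is the histone H3 lysine 27 demethylase encoded by KDM6B. The study's methods describe delivery by lentivirus, with an empty vector carrying a fluorescent reporter as the control, and the comparison asks what forced JMJD3 expression does to the transcripts of these leukemic cells. The labels place Vector replicate 1 on sequencing lane 20 and the other libraries on lane 17, and nothing says that replicates came from separate cultures, so p-values here measure only the spread between these samples, which may be technical.

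The phagocyte oxidase is the enzyme of the respiratory burst: it passes electrons from NADPH across the membrane to oxygen and so makes superoxide, which neutrophils and macrophages use to kill microbes. Its membrane core, flavocytochrome b558, pairs the catalytic subunit gp91phox, encoded by CYBB, with its stabilizing partner p22phox, encoded by CYBA. In resting cells subunits that include the organizer p47phox (NCF1) and the phosphoinositide-binding p40phox (NCF4) wait in the cytosol, and on stimulation they join the core together with a Rac GTPase, RAC2 being the main Rac of neutrophils and RAC1 the widely expressed form. Inherited loss of a core or cytosolic subunit causes chronic granulomatous disease, and promyelocytic cells acquire most of the oxidase as they mature.

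The libraries held deposited count totals of 39078443 and 40768225 in Vector and of 35176388 and 34704909 in JMJD3. Low counts stepped by a fixed amount in each library, so that 1 read stood for 1.14 and 1.05 deposited counts in Vector and for 0.993 and 0.829 in JMJD3. Divided by these steps, the totals came to 34190335 and 38947098 reads in Vector and to 35431658 and 41876234 reads in JMJD3. The members were well covered, from 433 reads for NCF1 in JMJD3 replicate 1 to 16382 reads for RAC1 in Vector replicate 2. KDM6B, the gene on the vector, stood at 2.88 and 2.44 FPKM (fragments per kilobase of transcript, scaled to sequencing depth) in Vector and at 6.76 and 7.99 FPKM in JMJD3. Its level was thus higher in both JMJD3 libraries than in both Vector libraries, as the labels state, with a log2 fold change of 1.48 (SE 0.129, edgeR adjusted p = 0.00114).

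Forced JMJD3 expression left the oxidase genes with unequal changes. With TMM scaling of the counts RAC1 fell and RAC2 rose, NCF1 was slightly lower, and neither flavocytochrome gene nor NCF4 passed the test. Of the 6 members, all of which passed the filter on low counts, 1 was higher and 2 were lower in JMJD3 at an adjusted p under 0.05. Over the 15246 genes tested, 21.6% were higher and 19.1% were lower, so the members' counts were near the background. No member was past the threshold with a change of 2-fold or more, against 10.4% of all genes tested that met both criteria. CPM, the counts of a gene scaled to a common library size, did not overlap between the groups for 3 of the 6 members, against 74.4% of all genes tested. The median log2 fold change was -0.14 over the members and 0.04 over all genes tested. Some of these calls and directions depended on the scaling. An alternative chosen after seeing the data scaled the FPKM of each library to a common total. Mitochondrial genes, and genes that did not pass the filter, made up more of the total FPKM in both Vector libraries than in both JMJD3 libraries. By limma on the common-total scale, 6976 genes were higher and 520 lower, and the median over all genes tested was 0.33. On that scale RAC1 was -0.03 (adjusted p = 0.786) and NCF1 0.12 (0.436), neither past the threshold, while RAC2 was 0.76 (0.00447), CYBB 0.46 (0.0296), CYBA 0.29 (0.0881) and NCF4 0.27 (0.0485). In bulk RNA, fewer cells of a type and less RNA per cell cannot be told apart.

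**Figure D1:**
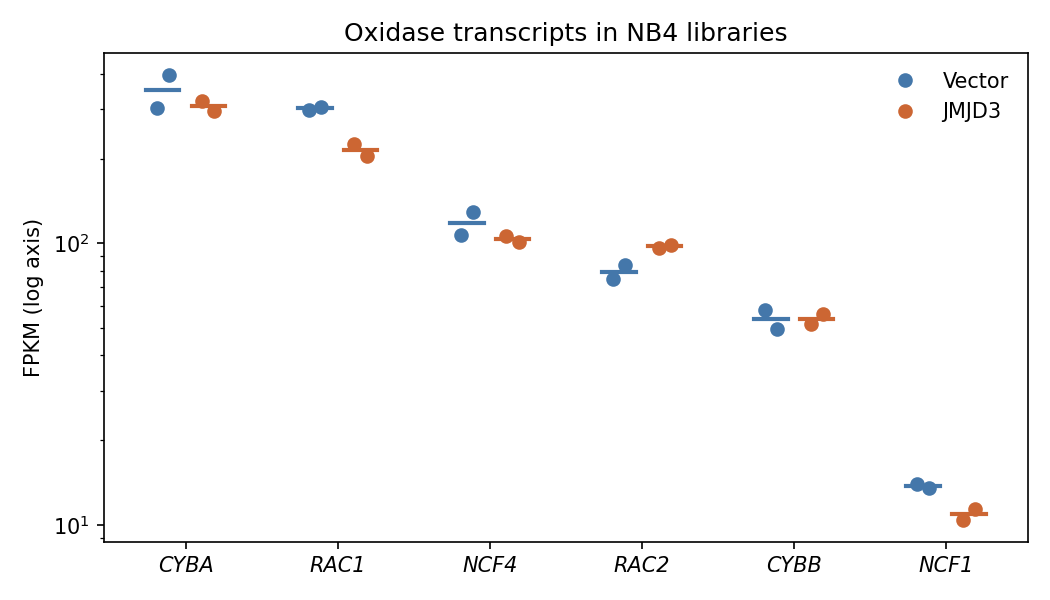
FPKM on a log axis of the 6 members in each NB4 library, with points for single libraries (n = 2 per group) and bars for group means. CYBA and RAC1 are the most abundant and NCF1 the least, while RAC1 is lower and RAC2 higher in both JMJD3 libraries than in both Vector libraries.

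On the per-length FPKM scale, the transcripts of the enzyme's parts differed widely in level. In Vector cells the order of mean FPKM was CYBA (349), RAC1 (302), NCF4 (118), RAC2 (79.4), CYBB (53.7) and NCF1 (13.7). CYBA and RAC1 overlapped between libraries in that group, and the other neighbours in the order did not. In JMJD3 cells the order of mean FPKM was the same, with CYBA at 307, RAC1 at 215, NCF4 at 104, RAC2 at 97.8, CYBB at 54.0 and NCF1 at 10.9. NCF4 and RAC2 came close there, with the lower NCF4 library at 100.8 FPKM and the higher RAC2 library at 98.9 FPKM.

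CYBB (ENSG00000165168, GRCh37 chrX:37639271-37672714, plus strand, protein coding) encodes the catalytic subunit. Its FPKM was 57.8 and 49.6 in Vector and 51.9 and 56.1 in JMJD3. Both JMJD3 values lay between the Vector values, so the groups overlapped. The group means were 53.7 ± 5.85 and 54.0 ± 2.96 FPKM (SD, n = 2 each). The log2 fold change was 0.03 (SE 0.106, 95% interval -0.22 to 0.28, edgeR adjusted p = 0.834), and its sign turned with DESeq2 scaling and with the library left out. On the linear scale the interval ran from 0.858-fold to 1.22-fold, which bounds the size of any difference at this spread and with this scaling only.

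CYBA (ENSG00000051523, GRCh37 chr16:88709683-88717491, minus strand, protein coding) encodes p22phox, which holds gp91phox stable in the membrane. Its FPKM was 303 and 395 in Vector and 319 and 294 in JMJD3. Vector replicate 2 stood above the other libraries, which lay close together, and the groups overlapped. The log2 fold change was -0.19 (SE 0.111, 95% interval -0.45 to 0.08, edgeR adjusted p = 0.212). This value rested on which Vector library was used. Within lane 17, without Vector replicate 1, it was -0.37 with an adjusted p of 0.00801, and without Vector replicate 2 it was -0.03 with an adjusted p of 0.71. The FPKM ratio of CYBA to CYBB was 5.23 and 7.98 in Vector and 6.15 and 5.25 in JMJD3. These ratios overlapped between the groups (difference of the mean log2 ratios -0.19, two-sided exact permutation p = 1), and 0.333 is the smallest p that 2 against 2 libraries allow.

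The cytosolic organizer gene NCF1 (ENSG00000158517, GRCh37 chr7:74188358-74203659, plus strand, protein coding) was the least abundant member. Its FPKM was 13.98 and 13.5 in Vector and 10.5 and 11.4 in JMJD3. Both JMJD3 libraries lay below both Vector libraries. The means of 13.7 ± 0.332 and 10.9 ± 0.661 FPKM (SD, n = 2 each) went with a log2 fold change of -0.33 (SE 0.106, 95% interval -0.58 to -0.07, edgeR adjusted p = 0.0479). This call was marginal. With JMJD3 replicate 1 left out the adjusted p was 0.409, with JMJD3 replicate 2 left out it was 0.29, and upper quartile scaling, limma, the Wald test of DESeq2, both other filters on low counts and the replicate block (adjusted p = 0.133) each put it above the threshold of 0.05. Within lane 17, without Vector replicate 1, the log2 fold change was -0.34 with an adjusted p of 0.0269.

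NCF1 has near-identical pseudogene copies, NCF1B and NCF1C, with which reads can be shared, so its own level is uncertain. NCF1B stood at 5.26 and 7.38 FPKM in Vector and at 4.80 and 3.95 FPKM in JMJD3. NCF1C stood at 4.51 and 6.26 FPKM in Vector and at 3.70 and 3.99 FPKM in JMJD3. Both copies had lower values in the JMJD3 libraries, and neither passed the test (log2 fold changes -0.48 and -0.45, adjusted p = 0.0958 and 0.0837). Without Vector replicate 1 both did (-0.73 and -0.69, adjusted p = 0.014 and 0.00881), and without Vector replicate 2 the values were -0.22 for each (adjusted p = 0.32 and 0.238). NCF1 itself held 60.6% and 52.3% of the summed CPM of the 3 genes in Vector and 57.3% and 59.8% in JMJD3. Those shares overlapped between the groups, and with the counts of the 3 genes summed before the fit the log2 fold change was -0.39 (adjusted p = 0.0298). By limma on FPKM scaled to a common total NCF1B was -0.0448 (adjusted p = 0.848) and NCF1C -0.00597 (adjusted p = 0.977). Their lower values were thus not seen on that scale.

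NCF4 (ENSG00000100365, GRCh37 chr22:37257030-37274059, plus strand, protein coding) encodes p40phox, which binds phosphatidylinositol 3-phosphate on phagosomes. Its CPM was 123 and 139 in Vector and 128 and 119 in JMJD3. Vector replicate 2 was again the highest library, and the groups overlapped on this scale. In FPKM it stood at 107 and 129.5 in Vector and at 106 and 100.8 in JMJD3, with a gap between the groups far smaller than that between the Vector libraries. The log2 fold change was -0.09 (SE 0.0933, 95% interval -0.31 to 0.14, edgeR adjusted p = 0.489). Within lane 17, without Vector replicate 1, it was -0.21 with an adjusted p of 0.0465, and without Vector replicate 2 it was 0.01 with an adjusted p of 0.954.

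RAC1 (ENSG00000136238, GRCh37 chr7:6414158-6443598, plus strand, protein coding) encodes the Rac GTPase found in most cell types, where it also steers actin. Its FPKM was 298 and 306 in Vector and 225 and 204 in JMJD3. The Vector libraries were alike, and both JMJD3 libraries were lower. The CPM values of 452 and 449 against 301 and 294 gave a log2 fold change of -0.60 (SE 0.0700, 95% interval -0.77 to -0.43, edgeR adjusted p = 0.00215), or 0.66-fold. RAC1 was past the threshold and lower in JMJD3 under every alternative that used counts or FPKM as deposited, with log2 fold changes from -0.63 to -0.49, and within lane 17 it was -0.63 (adjusted p = 0.00184). As a share of the FPKM of all genes RAC1 was 0.0222% and 0.0212% in Vector and 0.0224% and 0.0201% in JMJD3. These shares overlapped, so the fall was not seen on that scale. The divisor includes mitochondrial genes, which made up 26.8% and 29.4% of it in Vector and 19.8% and 22.5% in JMJD3. RAC1 shares without them were not computed. Of the 9 RAC1 pseudogenes in the table, the most abundant reached 0.674 CPM in any library.

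RAC2 (ENSG00000128340, GRCh37 chr22:37621310-37655634, minus strand, protein coding) encodes the Rac GTPase of blood cells. Its FPKM was 74.8 and 84.0 in Vector and 96.7 and 98.9 in JMJD3. Both JMJD3 libraries were higher than both Vector libraries, with means of 79.4 ± 6.48 and 97.8 ± 1.60 FPKM (SD, n = 2 each). The log2 fold change was 0.33 (SE 0.0901, 95% interval 0.12 to 0.55, edgeR adjusted p = 0.0263), or 1.26-fold. With JMJD3 replicate 1 left out the adjusted p was 0.187, with JMJD3 replicate 2 left out it was 0.254, and with the replicate block it was 0.0639. The call was also lost with limma on FPKM as deposited (adjusted p = 0.0587 and 0.0603) and with no filter on low counts (0.071). Within lane 17 the log2 fold change was 0.21 (adjusted p = 0.0293).

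**Figure D2:**
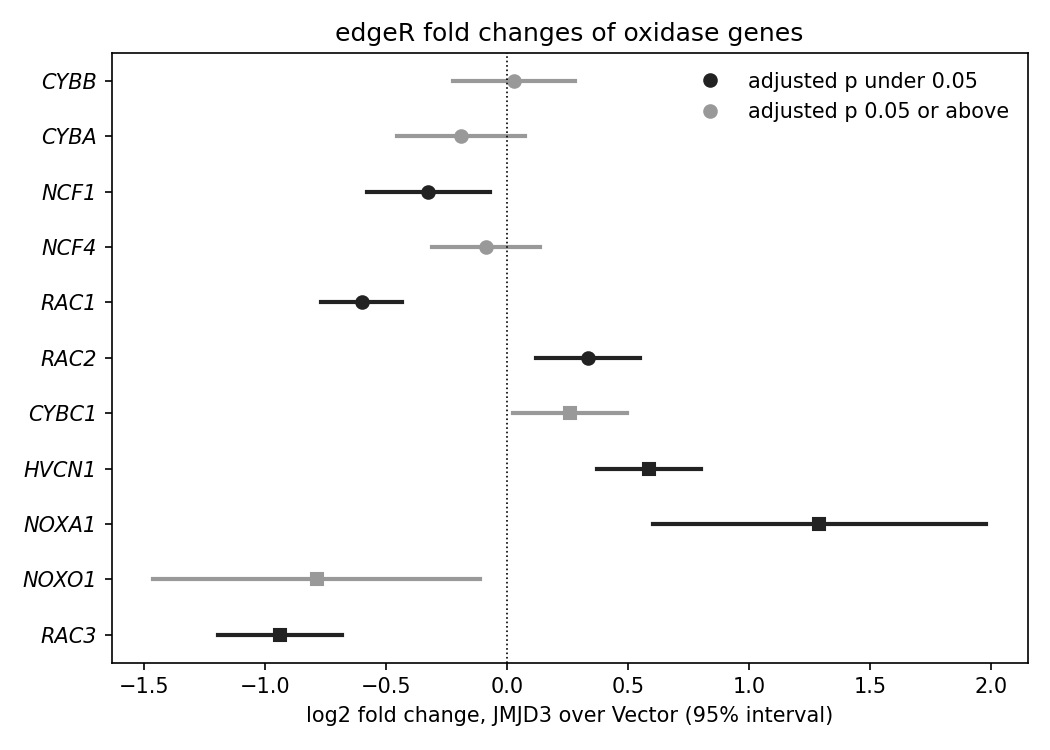
Log2 fold changes of JMJD3 over Vector from edgeR with 95% intervals for the 6 members (circles) and 5 related genes (squares), black where the adjusted p was under 0.05 and grey otherwise. The intervals of CYBB, CYBA and NCF4 span 0. Those of RAC1, RAC3, NCF1 and NOXO1 lie below 0, and those of RAC2, HVCN1, NOXA1 and CYBC1 above it. NOXO1 and CYBC1 are grey.

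The Rac transcripts therefore differed in balance between the groups. The FPKM ratio of RAC2 to RAC1 was 0.251 and 0.274 in Vector and 0.429 and 0.484 in JMJD3. The ratios, which scaling of a library does not alter, did not overlap, and the difference of the mean log2 ratios was 0.80. The exact permutation test over libraries, two-sided, gave p = 0.333, the smallest that 2 against 2 libraries allow. The size depended on the scale, being 0.94 with CPM in place of FPKM, because the FPKM per CPM of both genes differed between the groups. For RAC1 it was 0.659 and 0.681 in Vector and 0.748 and 0.697 in JMJD3. For RAC2 it was 0.851 and 0.852 in Vector and 0.832 and 0.833 in JMJD3.

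RAC3, a close relative known mainly from neurons, stood at 193 and 237 FPKM in Vector and at 110 and 106 FPKM in JMJD3. It was lower in both JMJD3 libraries, with a log2 fold change of -0.94 (SE 0.107, edgeR adjusted p = 0.00205). The summed FPKM of RAC1, RAC2 and RAC3 was 566 and 627 in Vector and 432 and 410 in JMJD3. The FPKM of all genes summed to 1344845 and 1445366 in Vector and to 1004715 and 1018094 in JMJD3, so the Rac sum was 0.0421% and 0.0434% of all FPKM in Vector and 0.043% and 0.0402% in JMJD3, shares that overlapped between the groups. Mitochondrial genes made up 26.8% and 29.4% of all FPKM in Vector and 19.8% and 22.5% in JMJD3, and genes that did not pass the filter 18.4% and 16.8% in Vector and 8.46% and 11.2% in JMJD3. Of the Rac sum RAC2 made up 13.2% and 13.4% in Vector and 22.4% and 24.1% in JMJD3. The RAC1 share was 52.7% and 48.8% in Vector and 52.2% and 49.9% in JMJD3, and the RAC3 share 34.1% and 37.8% in Vector and 25.4% and 25.9% in JMJD3. Thus the share of RAC2 was higher, that of RAC3 lower, and that of RAC1 overlapped between the groups. Reads shared between these related coding sequences were not examined.

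Of the other NOX family and maturation genes, 6 of 14 passed the filter, and these 6 include the NCF1 pseudogenes NCF1B and NCF1C. Among the 6, 2 were higher, beside 21.6% of all genes tested, and 4 did not pass the test. Their median log2 fold change was -0.10, beside 0.04 over all genes tested. HVCN1, NOXA1 and CYBC1 lay above 0, and NOXO1 and the pseudogenes (-0.48 and -0.45) below it. The sign of the median thus rested on counting the pseudogenes. HVCN1, the proton channel that offsets the charge moved by the oxidase, stood at 37.6 FPKM in both Vector libraries and at 61.1 and 56.6 FPKM in JMJD3. It was higher in both JMJD3 libraries, with a log2 fold change of 0.59 (SE 0.0899, adjusted p = 0.0043), a call lost without JMJD3 replicate 1 (adjusted p = 0.0554). From FPKM scaled to a common total HVCN1 was 1.08. CYBC1, whose product is needed for the flavocytochrome to accumulate, was at 34.7 and 39.6 FPKM in Vector and at 44.5 and 42.4 FPKM in JMJD3, and its log2 fold change of 0.26 did not pass (adjusted p = 0.0742), though it was 0.67 with an adjusted p of 0.00593 from FPKM scaled to a common total, 0.35 with an adjusted p of 0.0121 without Vector replicate 2 and 0.14 with an adjusted p of 0.114 without Vector replicate 1. NOXA1, an activator in the NOX1 system, had a log2 fold change of 1.29 (adjusted p = 0.0142) at 20 to 70 reads, which was 0.99 and not past the threshold without JMJD3 replicate 1 (adjusted p = 0.1) and 0.49 by limma on log2(FPKM + 1), or 0.62 once FPKM was scaled to a common total. NOXO1, the matching organizer, had a log2 fold change of -0.79 that did not pass (adjusted p = 0.0646), but did with at least 10 counts required in every library (adjusted p = 0.048). By limma NOXO1 was -0.42 on log2(FPKM + 1) and -0.17 once FPKM was scaled to a common total, neither past the threshold (adjusted p = 0.0567 and 0.256). The other catalytic NOX and DUOX genes (NOX1, NOX3, NOX4, NOX5, DUOX1 and DUOX2) and the DUOX maturation factors DUOXA1 and DUOXA2 did not pass the filter, and the highest of them, DUOX1, reached 0.184 FPKM. CYBB was therefore the catalytic NOX gene with the highest FPKM in all 4 libraries.

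Transcripts for proteins that load, unload or hold Rac were examined next. Of 19 small GTPase and exchange factor genes, 18 were tested, and 4 were higher and 5 lower, near the 21.6% and 19.1% over all genes tested. The median log2 fold change was -0.01, beside 0.04 over all genes. Among the genes past the threshold, those that rose most were ARHGAP25 (0.53, adjusted p = 0.00539), a Rac GTPase-activating protein of leukocytes, DOCK2 (0.36, adjusted p = 0.0176), a Rac exchange factor of blood cells, and PREX1 (0.33, adjusted p = 0.0213), a Rac exchange factor of neutrophils. Besides RAC3, ARHGDIA, the inhibitor that keeps Rac in the cytosol, fell by 0.54 on the log2 scale (adjusted p = 0.00576), and RHOG, a GTPase upstream of Rac, fell by 0.46 (adjusted p = 0.00845). RAC3 kept its call under all 15 alternatives, with a value of -0.52 from FPKM scaled to a common total. On that scale ARHGDIA (-0.06, adjusted p = 0.566) and RHOG (0.00, 0.994) were not past the threshold, and ARHGAP25 was 0.90, DOCK2 0.69 and PREX1 0.71. ARHGDIA kept its call under the other alternatives. The call was lost under 6 of 15 for PREX1, 5 for DOCK2 and 2 for ARHGAP25, the removal of either JMJD3 library among them, and for RHOG also without JMJD3 replicate 2 (adjusted p = 0.0997).

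Among 16 kinases and lipid enzymes that activate the oxidase, all were tested, and 5 were higher and 2 lower, beside 21.6% and 19.1% of all genes tested. The median log2 fold change was 0.22, beside 0.04 over all genes. PRKCZ, an atypical protein kinase C, rose by 1.46 on the log2 scale (adjusted p = 0.00288) from a low level of 0.696 and 0.881 FPKM in Vector. PIK3C3, which makes the lipid that p40phox binds, rose by 0.64 (adjusted p = 0.00526), and IRAK4, a kinase of Toll-like receptor signalling, rose by 0.53 (adjusted p = 0.00706). PRKCD, a protein kinase C known to phosphorylate p47phox, fell by 0.51 (adjusted p = 0.00394), and PLA2G4A, which releases arachidonic acid, fell by 0.42 (adjusted p = 0.0266). PRKCZ kept its call under all 15 alternatives, though with limma on log2(FPKM + 1) its value was 0.85. The call was lost under 6 of 15 for PLA2G4A and 2 for IRAK4, the removal of either JMJD3 library among them, and for PIK3C3 and PRKCD without JMJD3 replicate 2 (adjusted p = 0.0539 and 0.0527). From FPKM scaled to a common total PRKCD (-0.05, adjusted p = 0.6) and PLA2G4A (0.02, 0.936) were not past the threshold, and PRKCZ was 1.03, PIK3C3 1.10 and IRAK4 1.12.

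Of 14 receptors that trigger the burst, 9 were tested, 4 were higher and 1 was lower, beside 21.6% and 19.1% of all genes tested, with a median log2 fold change of 0.13 beside 0.04 over all genes. The chains of the integrin CD11b/CD18 were among the higher genes. ITGB2 stood at 61.6 and 57.2 FPKM in Vector and at 104 and 121 FPKM in JMJD3 (log2 fold change 0.74, adjusted p = 0.00182), and ITGAM at 6.09 and 4.88 FPKM in Vector and at 7.17 and 7.38 FPKM in JMJD3 (0.59 from counts, adjusted p = 0.01). From FPKM as deposited the ITGAM value was smaller and not past the threshold (limma, 0.36 with a pseudocount of 1 and 0.41 with 0.1, adjusted p = 0.129 and 0.119), and it also lost its call without JMJD3 replicate 2 (adjusted p = 0.0554). CSF2RB, the shared chain of the GM-CSF receptor, rose by 0.61 (adjusted p = 0.0269), a call lost under 5 of 15 alternatives, among them the removal of Vector replicate 2 (adjusted p = 0.0555) or of JMJD3 replicate 2 (0.133). C5AR1, the receptor for complement fragment C5a, fell by 1.80 (adjusted p = 0.00124), from 3.04 and 2.55 FPKM to 0.85 and 0.903 FPKM. C5AR1 and ITGB2 kept their calls under all 15 alternatives, C5AR1 with a value of -1.01 by limma on log2(FPKM + 1). From FPKM scaled to a common total C5AR1 was -0.69, ITGB2 1.36, ITGAM 0.74 and CSF2RB 0.79. FPR1, FPR2, FCGR3B, CLEC7A and TLR2 did not pass the filter.

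**Figure D3:**
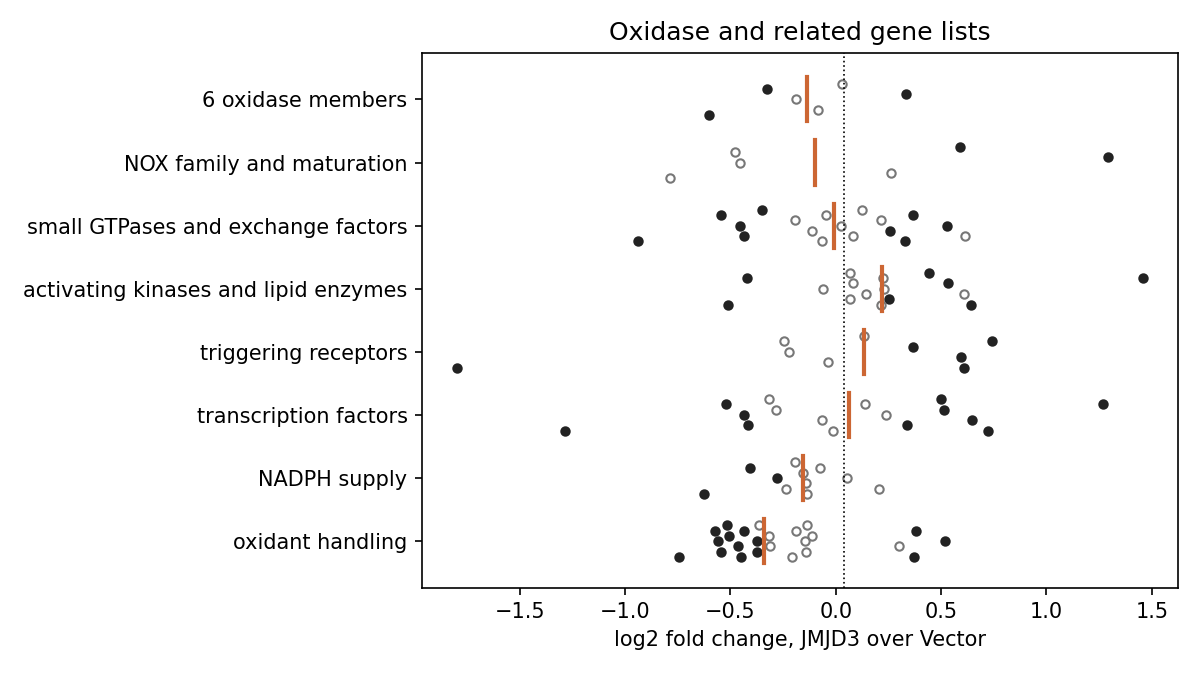
Log2 fold changes of JMJD3 over Vector for each tested gene of the 6 members and of the related lists, filled where the adjusted p was under 0.05, with the list median as an orange bar and the median of all genes tested (0.04) as a dotted line. Members and most lists hold genes on both sides of 0, and the oxidant handling list has its median at -0.34.

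The members with an entry in the RefSeq promoter table (GRCh38.p14) were CYBB, CYBA and NCF1, 3 of 6. Their 250 bases before the start site are shown because the transcripts of PU.1 and C/EBP factors are among those described next. Searched on both strands were GAGGAA, the core bound by PU.1, CCAAT, TTGCNNAA, a form of the C/EBP site, and CCGCCC, the GC box bound by Sp1, and matches to any of them are in capitals. The stretches are chrX:37779809-37780058 on the plus strand, chr16:88651054-88651303 on the minus strand and chr7:74773761-74774010 on the plus strand, each written 5′ to 3′ in the direction of the gene.
CYBB: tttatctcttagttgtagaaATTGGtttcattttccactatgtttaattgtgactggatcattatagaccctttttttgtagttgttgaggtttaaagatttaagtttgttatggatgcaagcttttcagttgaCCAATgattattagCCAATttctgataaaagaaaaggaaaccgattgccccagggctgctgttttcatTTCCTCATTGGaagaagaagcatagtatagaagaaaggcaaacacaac
CYBA: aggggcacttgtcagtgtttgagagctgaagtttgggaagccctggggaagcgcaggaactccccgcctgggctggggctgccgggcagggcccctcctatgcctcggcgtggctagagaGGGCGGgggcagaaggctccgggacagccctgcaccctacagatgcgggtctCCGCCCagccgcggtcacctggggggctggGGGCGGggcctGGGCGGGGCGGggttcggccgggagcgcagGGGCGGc
NCF1: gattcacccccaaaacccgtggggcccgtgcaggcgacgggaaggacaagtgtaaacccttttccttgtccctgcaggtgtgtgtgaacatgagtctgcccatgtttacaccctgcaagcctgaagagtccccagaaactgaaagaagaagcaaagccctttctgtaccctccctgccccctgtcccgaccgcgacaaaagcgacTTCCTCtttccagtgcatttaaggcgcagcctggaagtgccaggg
The GAGGAA core was found, as its reverse complement, from 48 to 43 bases before the CYBB start and from 45 to 40 bases before the NCF1 start, and 23.6% of 35116 promoter stretches of this length hold it. CCAAT was found at 4 places in CYBB, reading ATTGG where it lies on the other strand, and is held by 32.0% of promoters. In CYBB, the ATTGG nearest the start directly follows the TTCCTC. None of the 3 stretches holds TTGCNNAA, which 9.05% of promoters hold. CCGCCC was found at 6 places, all in CYBA and mostly as its reverse complement GGGCGG, with a pair of matches near the start that share a base, and 42.6% of promoters hold it. The GC content of the CYBA stretch was 73.6%, beside 34.0% for CYBB, 56.4% for NCF1 and a median of 58.0% over all promoters. These matches describe letters, and binding was not measured here.

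SPI1, which encodes PU.1, the factor known to act at the promoters of CYBB and the cytosolic subunits, stood at 204 and 246 FPKM in Vector and at 189 and 169 FPKM in JMJD3. Both JMJD3 libraries were lower, and the difference did not pass the test (log2 fold change -0.29, SE 0.106, edgeR adjusted p = 0.0711). Without Vector replicate 1 it was -0.44 with an adjusted p of 0.0107, without Vector replicate 2 it was -0.16 with an adjusted p of 0.175, and the DESeq2 Wald test gave -0.32 with an adjusted p of 0.0418. From FPKM scaled to a common total it was 0.14 with an adjusted p of 0.281. IRF8, a partner of PU.1, stood at 9.09 and 9.61 FPKM in Vector and at 10.1 and 10.6 FPKM in JMJD3, and its log2 fold change of -0.07 from counts did not pass (adjusted p = 0.676) and turned positive when FPKM was used, past the threshold once FPKM was scaled to a common total (0.54, adjusted p = 0.0166).

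Of 16 transcription factors known at oxidase promoters or in this lineage, all were tested, and 6 were higher and 4 lower, beside 21.6% and 19.1% of all genes tested. The median log2 fold change was 0.06, beside 0.04 over all genes. CEBPE, the factor of late granulocyte maturation, stood at 54.9 and 69.5 FPKM in Vector and at 104 and 97.1 FPKM in JMJD3. Its level was higher in both JMJD3 libraries (log2 fold change 0.72, adjusted p = 0.00515). CEBPB, a factor of emergency granulopoiesis, rose by 0.65 (adjusted p = 0.0114), and GATA1, a factor of the erythroid and eosinophil lineages, by 1.27 (adjusted p = 0.00365). HOXA9, a homeobox factor of immature myeloid cells, fell by 1.28 (adjusted p = 0.00397), CEBPA, the factor of early granulocyte commitment, by 0.52 (adjusted p = 0.0106) and HOXA10, which is known to repress CYBB, by 0.43 (adjusted p = 0.0117). CEBPE and GATA1 kept their calls under all 15 alternatives, and HOXA9 under all but FPKM scaled to a common total (-0.45, adjusted p = 0.0606). By limma on log2(FPKM + 1) GATA1 was 0.73 and HOXA9 -0.74, and from FPKM scaled to a common total CEBPE was 1.15, GATA1 0.95 and CEBPB 0.95. The call was lost without JMJD3 replicate 1 for CEBPB (adjusted p = 0.123), without JMJD3 replicate 2 for CEBPA (0.074), and without either for HOXA10 (0.0613 and 0.207). From FPKM scaled to a common total CEBPA (-0.08, adjusted p = 0.529) and HOXA10 (0.01, 0.945) were not past the threshold.

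The oxidase consumes NADPH, and its products are handled by peroxidases and antioxidant enzymes. Of 11 genes for NADPH supply, all were tested, 3 were lower, beside 19.1% of all genes tested, and 8 did not pass the test. The median log2 fold change was -0.16, beside 0.04 over all genes. IDH2, which makes NADPH in mitochondria, fell by 0.62 (adjusted p = 0.00262), ME1, malic enzyme, by 0.41 (adjusted p = 0.0296) and TALDO1, transaldolase, by 0.28 (adjusted p = 0.042). IDH2 kept its call under all alternatives but FPKM scaled to a common total (-0.21, adjusted p = 0.0539), where ME1 (0.03, 0.862) and TALDO1 (0.14, 0.165) turned positive and were not past the threshold. The call was lost under 9 of 15 for TALDO1 in all, among them upper quartile scaling (adjusted p = 0.0899), the replicate block (0.0987) and the removal of Vector replicate 2 (0.0616) or either JMJD3 library (0.185 and 0.338). For ME1 it was lost under 7 of 15 in all, among them the replicate block (0.0506) and the removal of either JMJD3 library (0.161 and 0.29).

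Of 25 genes for oxidant handling, 24 were tested, 3 were higher and 11 lower, beside 21.6% and 19.1% of all genes tested, with a median log2 fold change of -0.34 beside 0.04. MPO, the granule enzyme that turns hydrogen peroxide into hypochlorous acid, stood at 4889 and 5055 FPKM in Vector and at 3278 and 3324 FPKM in JMJD3, a log2 fold change of -0.57 (adjusted p = 0.00168). KEAP1, the sensor that holds down the antioxidant response, fell by 0.75 (adjusted p = 0.0021), and TXN2, mitochondrial thioredoxin, by 0.56 (adjusted p = 0.00738). NQO1, a quinone reductase, rose by 0.52 (adjusted p = 0.007), EPX, eosinophil peroxidase, by 0.38 (adjusted p = 0.0414) and CAT, catalase, by 0.37 (adjusted p = 0.0121). KEAP1 kept its call under all 15 alternatives, with a value of -0.37 from FPKM scaled to a common total, where NQO1 was 0.96, EPX 0.59 and CAT 0.78. From FPKM scaled to a common total MPO (-0.13, adjusted p = 0.372) and TXN2 (-0.06, 0.617) were not past the threshold, and MPO was past it in the other alternatives. EPX lost its call under 8 of 15, among them DESeq2 size factors (adjusted p = 0.0582), the replicate block (0.112) and the removal of either JMJD3 library (0.27 and 0.295). NQO1 (0.0755 and 0.0558) and CAT (0.179 and 0.156) lost theirs with either JMJD3 library left out, and TXN2 also without JMJD3 replicate 2 (0.0891).

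The genes whose pattern over the 4 libraries lay closest to each called member were drawn from 7169 tested genes with a mean of at least 10 FPKM, by Euclidean distance of centred log2 CPM. For RAC1 they were TFB2M (distance 0.0189), PLD6 (0.0255) and HNRNPDL (0.034). For RAC2, DBNL (0.036) and TMEM5 (0.0397) were among them. For NCF1 they were QSOX2 (0.019), ALDH3A2 (0.0231) and TEX10 (0.0273). With 4 libraries in 2 groups, such closeness says little more than that the genes shared a fold change.

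The labelled cell type was checked by its markers. Of 8 promyelocyte markers, 6 were tested, and 1 was higher and 4 lower in JMJD3, beside 21.6% and 19.1% of all genes tested. Lower were CTSG (log2 fold change -3.9), PRTN3 (-1.81), MPO (-0.57) and AZU1 (-0.56), and higher was CD33 (0.29). The summed CPM of the 8 markers was 16960 and 17710 in Vector and 10820 and 10810 in JMJD3. MPO, also counted under oxidant handling, was the most abundant, while ELANE and KIT stayed under 1 CPM in every library. Of 8 mature neutrophil markers, 4 were tested and 1 was higher, near the 21.6% of all genes tested, with summed CPM of 116 and 129 in Vector and 133 and 133 in JMJD3. CSF3R and MMP9 were the most abundant, MMP9 the higher of them in Vector replicate 2 and CSF3R in the other libraries, and FCGR3B, MME and LCN2 were at 0. Of 8 monocyte or macrophage markers, 4 were tested and 2 were higher, beside 21.6% of all genes tested, with summed CPM of 21.4 and 20.04 in Vector and 37.8 and 36.3 in JMJD3. CD68 led them, and 5 of the 8 stayed under 1 CPM. The promyelocyte sum was lower and the monocyte or macrophage sum higher in both JMJD3 libraries, whereas the call in the mature neutrophil list was CAMP alone, at 2 to 15 reads, and its CXCR2, CSF3R and MMP9 did not pass.

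Of 7 eosinophil markers, 5 were tested and 3 were higher, beside 21.6% of all genes tested, with summed CPM of 528 and 588 in Vector and 1169 and 1025 in JMJD3. RNASE2 was the most abundant in both Vector libraries (324.5 and 355.7 CPM, and 304.4 and 278.1 CPM in JMJD3) and PRG2 in both JMJD3 libraries (837.1 and 721.1 CPM, and 180.4 and 205.9 CPM in Vector). RNASE2 and RNASE3 did not pass the test (log2 fold changes -0.22 and -0.06), the other higher genes were EPX and CCR3, and CLC, IL5RA and CCR3 stayed under 1 CPM. Of 6 B cell markers, 3 were tested and 1 was higher, beside 21.6%, with summed CPM of 25.9 and 30.8 in Vector and 36.6 and 32.8 in JMJD3. CD79B led them, and MS4A1 was at 0. Of 4 T cell markers only CD2 was tested, and it was higher, as were 21.6% of all genes tested, with summed CPM of 3.75 and 5.27 in Vector and 11.1 and 11.1 in JMJD3. All 7 erythroid markers were at 0 in the 4 libraries, which at 3 reads allows at most 0.0925 CPM for each, for counting error only. Of 5 epithelial markers, 2 were tested and 1 was lower, beside 19.1% of all genes tested, with summed CPM of 6.64 and 7.49 in Vector and 3.43 and 2.81 in JMJD3. EPCAM was the most abundant in both Vector libraries and KRT8 in both JMJD3 libraries, and KRT19 and CDH1 were at 0. Mitochondrial genes took 7.91% and 7.65% of the counts in Vector and 5.73% and 5.86% in JMJD3. The part of these marker and mitochondrial differences in the members' values was not tested.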

How the data were processed

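Polyadenylated RNA of 2 Vector and 2 JMJD3 libraries of NB4 cells was sequenced, and the study's methods name companies for the sequencing and its analysis. The deposited table holds, per gene and library, an estimated count and an FPKM supplied by the authors. It also holds the authors' mean FPKM, log2 fold change, p-value, false discovery rate and significance for the comparison, and none of these was used. The sources name different pipelines: the study's methods give Cutadapt, STAR, HTSeq-count and DESeq2 with the earlier human build, the submitters' processing notes give CASAVA 1.8, TopHat2 2.0.4, RSEM, edgeR and GRCh38, and the design text gives BWA, TopHat and Cufflinks. Which of them made the values is not settled by the file. The deposited estimated counts were multiplied by a fixed factor in each library: between 95.1% and 95.2% of the values above 0 and under 50 were within 0.02 of a whole multiple of it, and all 24 member values were within 0.05 of whole reads. Whether reads were counted by strand is not given in the sources used here.

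Estimated counts were rounded. Genes were kept with filterByExpr (15246 of 60662), scaled by TMM and tested with edgeR 4.0.16 (R 4.3.3) by glmQLFit and glmQLFTest with no covariate, two-sided, with Benjamini-Hochberg adjustment over all genes tested and a threshold of 0.05. SE is the log2 fold change over the square root of F. Intervals are 95% intervals on the total degrees of freedom of the fit, which add to the residual ones those borrowed from other genes. Alternatives used DESeq2 1.42.0, limma 3.58.1 on the log2 of FPKM with a pseudocount of 1 or 0.1, and of 1 after FPKM was scaled to a common total in each library, other scalings and filters, the replicate block, each library left out, and the counts divided by the value of 1 read. The procedures were tested on simulated data. A count of 0 allows up to 3 reads, between 0.0671 and 0.0925 CPM.

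The members and lists were chosen with earlier results of these data known. Named were all members, KDM6B, the NOX family list, from each other list up to 3 genes that rose and up to 3 that fell with the largest changes among those past the threshold, a few regulators and receptors, and for each called member the 3 genes nearest in pattern. Marker lists were those of promyelocytes, mature neutrophils, monocytes or macrophages, eosinophils, B cells, T cells, erythroid cells and epithelial cells. CYBC1 was found under its older symbol. Some genes of the lists are not reported here and are not in the lists' counts or medians. Gene positions came from GENCODE on GRCh37, matched by identifier, and promoters from RefSeq on GRCh38.p14.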

Additional observations from a re-analysis of the deposited data

How the results depend on the processing

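KDM6B kept its direction and side of the threshold under all alternatives run, and RAC1 under all but FPKM scaled to a common total. That alternative, chosen after seeing the data, gave RAC1 -0.0292, CYBB 0.464, CYBA 0.287, NCF1 0.119, NCF4 0.274, RHOG 0.000778, PLA2G4A 0.0155, HOXA10 0.00846, ME1 0.0318, TALDO1 0.143, SPI1 0.138 and IRF8 0.543, with 6976 genes higher and 520 lower. With 1 library left out, log2 fold changes ranged from -0.63 to -0.58 for RAC1, 1.36 to 1.58 for KDM6B, -0.0937 to 0.13 for CYBB, -0.366 to -0.0325 for CYBA, -0.37 to -0.28 for NCF1, -0.209 to 0.00543 for NCF4 and 0.21 to 0.42 for RAC2. The lone library of a group was then assumed to vary like the other group. The FPKM ratios ranged from -0.49 to 0.12 for CYBA to CYBB and from 0.71 to 0.88 for RAC2 to RAC1, whose log2 difference in CPM was 0.94. CYBB was -0.00161 both with DESeq2 size factors and in its Wald test. NCF1 lost its call with limma on FPKM as deposited (-0.31 with a pseudocount of 1, -0.33 with 0.1), upper quartile scaling (-0.29), the Wald test of DESeq2 (-0.36), no filter (-0.33) and at least 10 counts in every library (-0.32), with adjusted p between 0.0222 and 0.436 over all its alternatives. RAC2 lost its call with limma on FPKM as deposited (0.300 and 0.303) and with no filter (0.33), with adjusted p between 0.00244 and 0.254. IRF8 turned positive with limma (0.13 and 0.145) and ranged from -0.173 to 0.00985 with 1 library left out. The cause was not tested.

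With the replicate number as a replicate block, NCF1 was -0.33 (adjusted p = 0.133) and RAC2 0.34 (adjusted p = 0.0639), no other member changed its call, and 3267 genes were higher and 2415 lower. Deviations of the libraries numbered 1 correlated at -0.146 across genes, which are not independent replicates. Crossing the numbers, chosen after seeing the data, gave 4335 higher and 3772 lower genes.

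The 3292 higher and 2906 lower genes became 2046 higher and 2260 lower with limma on FPKM plus 1, 2032 and 2291 with FPKM plus 0.1, 3096 and 3130 with DESeq2 size factors and 2534 and 2834 in its Wald test, so that lower genes then outnumbered higher ones. Higher genes stayed the more numerous with upper quartile scaling (3603 higher and 2458 lower) and with at least 10 counts in every library (3076 and 2730). The genes called became 1893 higher and 1776 lower with no filter, and 1151 higher and 430 lower at 2-fold or more. With 1 library left out they ranged from 1920 to 4343 higher and from 1133 to 4183 lower. Counts divided by the value of 1 read, also chosen after seeing the data, gave 3304 higher and 2915 lower genes. For the other named genes over all alternatives, 478 values kept direction and side of the threshold, 71 lost the call, 11 gained it and 10 changed sign.

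Lane 20 held only Vector replicate 1, so fitting lane as a term amounts to leaving that library out. Read sharing between NCF1 and its copies was not tested beyond the summed fit (-0.385).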
